A study of Mus musculus with 10 samples.

Results

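The transporters that carry amino acids, and the neurotransmitters and osmolytes related to them, across cell membranes were followed in the retinal pigment epithelium (RPE) of wild-type CD1 mice. The genes were all protein-coding genes with a symbol of the Slc1a, Slc6a, Slc7a, Slc36a, Slc38a or Slc43a series, other than Slc7a11, which left 61 of the 47729 genes in the count table. They were 7 Slc1, 21 Slc6, 15 Slc7, 4 Slc36, 11 Slc38 and 3 Slc43 genes. One of them, Slc7a6os, matches by its symbol but is not a transporter, and it stays in every count below.

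RNA was sequenced from 5 mice at postnatal day 40. In each mouse, one eye had been given an adeno-associated virus (AAV) with the Best1 promoter driving GFP (the GFP control eye), and the other eye the same vector together with AAV Best1 Nrf2 (the Nrf2 eye). All 10 eyes therefore carried the GFP vector, and the Nrf2 eyes an additional vector with the human Nrf2 coding sequence, so that Nrf2 itself and a larger vector load cannot be told apart. The Best1 promoter drives expression in RPE cells, Nrf2 (gene Nfe2l2) is a transcription factor of the response to oxidative stress, and the RNA was released from eyecups after the retina had been taken out, so that RNA of other cells could come along.

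The RPE is a single cell layer that lies against the photoreceptors on one face and the choroidal blood supply on the other, and it moves amino acids and taurine between them. The Slc1 family holds the sodium-coupled glutamate carriers and the exchangers of small neutral amino acids, and the Slc6 family the sodium- and chloride-coupled carriers of GABA, taurine, glycine, proline, creatine and monoamines. Most Slc7 proteins work as light chains bound to a heavy chain, usually Slc3a2, and exchange one amino acid for another, while Slc38, Slc36 and Slc43 proteins carry neutral amino acids with sodium, with protons or by facilitated diffusion.

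Promoter windows are shown for the called genes that held one of the motifs searched, with that of Slc7a11, the cystine exchanger gene, beside them. Each window runs from 250 bases before to 50 bases after a RefSeq transcript start (GRCm38.p6), is written 5′ to 3′ on the strand of its gene, and has the matched letters in capitals. The Slc1a4 window is chr11:20332664-20332963 and the Slc7a11 window chr3:50443564-50443863 (both minus strand). Slc7a7 has 5 windows, and the one shown is chr14:54417895-54418194 (minus strand). Slc6a13 has 3 windows, and the one shown is chr6:121300038-121300337 (plus strand). Another Slc7a7 window, which overlaps the one shown, held the same match. The remaining windows of Slc7a7 and Slc6a13 held none of the motifs.
Slc1a4: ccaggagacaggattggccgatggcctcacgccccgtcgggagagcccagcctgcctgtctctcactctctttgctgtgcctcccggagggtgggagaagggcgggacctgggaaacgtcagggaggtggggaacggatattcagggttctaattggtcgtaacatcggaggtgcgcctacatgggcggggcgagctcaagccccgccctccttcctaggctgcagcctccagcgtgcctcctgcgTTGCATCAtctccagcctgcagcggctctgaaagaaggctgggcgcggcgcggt
Slc7a7: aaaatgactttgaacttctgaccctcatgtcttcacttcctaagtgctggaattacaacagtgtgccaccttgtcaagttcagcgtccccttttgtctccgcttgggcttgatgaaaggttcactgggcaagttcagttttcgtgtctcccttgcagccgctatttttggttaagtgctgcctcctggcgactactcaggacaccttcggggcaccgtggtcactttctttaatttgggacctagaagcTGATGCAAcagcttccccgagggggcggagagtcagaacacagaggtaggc
Slc6a13: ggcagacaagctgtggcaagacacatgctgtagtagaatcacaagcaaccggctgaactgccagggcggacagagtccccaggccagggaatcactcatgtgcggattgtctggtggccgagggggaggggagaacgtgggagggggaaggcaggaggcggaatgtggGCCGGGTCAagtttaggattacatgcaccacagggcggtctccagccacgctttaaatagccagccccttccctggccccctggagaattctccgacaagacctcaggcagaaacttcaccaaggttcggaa
Slc7a11: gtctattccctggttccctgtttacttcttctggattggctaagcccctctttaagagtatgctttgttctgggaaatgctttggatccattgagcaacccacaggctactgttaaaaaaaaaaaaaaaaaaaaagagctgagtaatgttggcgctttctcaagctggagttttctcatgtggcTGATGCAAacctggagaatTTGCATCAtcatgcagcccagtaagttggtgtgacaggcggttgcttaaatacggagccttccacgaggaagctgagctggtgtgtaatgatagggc

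Both strands were searched for TGACNNNGC, the core of the antioxidant response element that Nrf2 binds with a small Maf partner, and for TGATGNAAT, a form of the amino acid response element that ATF4 binds with a C/EBP partner. The shorter TGATGCAA, which shares its letters with the latter, was added after the windows had been seen. TGACNNNGC was in 12.4% of 32851 windows and in at least 1 window of 9 of the 43 transporter genes that the RefSeq table covers (20.9%, against 14% of the 27025 genes). Among the called genes it was found in Slc6a13 alone, at bases 169 to 177 of the window shown. TGATGNAAT was in 0.965% of windows and 1.08% of genes, and in 1 of the 43 genes, Slc6a21, which is not a called gene. TGATGCAA was in 0.895% of windows and 1.03% of genes, and in 2 of the 43 genes, Slc1a4 (bases 247 to 254, as TTGCATCA) and Slc7a7 (bases 250 to 257). As it was chosen with these windows in view, its shares cannot show an excess. Slc7a11 held it at bases 185 to 192 and at bases 204 to 211. These are matches of letters in a window, and binding was not measured.

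The library totals ran from 12298404 to 27310638 counts. Nfe2l2 was between 78.7 and 113 CPM (counts scaled to a common library size) in control eyes and between 278 and 438 CPM in Nrf2 eyes, so the groups matched their labels. How reads of the human coding sequence were counted was not stated. Of 12 RPE markers, 11 had a mean of at least 43.3 CPM in both groups, while Best1 itself was at 0.770 CPM in control eyes and 1.13 CPM in Nrf2 eyes. The RPE list summed to 22834 to 46181 CPM in control eyes and 10440 to 30966 CPM in Nrf2 eyes, with 7 of 12 genes lower and ranges that overlap. The list of microglia and macrophages summed to 167 to 291 CPM and 350 to 1730 CPM, with 11 of 13 genes higher and no overlap. Over all tested genes, 2.73% were lower and 3.60% higher at an adjusted p of 0.05. Rod RNA stood apart in mouse 2, with 20419 CPM over 12 rod genes in its control eye and 7939 CPM in its Nrf2 eye, and in the control eye of mouse 4, with 3289 CPM. The other 7 eyes were between 159 and 530 CPM. Muscle RNA also varied, with 58.6 to 111 CPM over 8 muscle genes in control eyes and 6.20 to 670 CPM in Nrf2 eyes. It was lower in the Nrf2 eye of mice 1 and 2 and higher in that of mice 3, 4 and 5. Among the further marker lists, 0 of 11 rod, 0 of 7 cone, 0 of 8 Müller glia, 0 of 10 endothelium, 0 of 7 fibroblast, 0 of 8 muscle and 0 of 1 tested T cell genes passed with edgeR (1, 3, 2, 0, 0, 0 and 0 at an unadjusted p under 0.05, and 1, 1, 1, 0, 0, 0 and 0 with DESeq2). Of the 16362 genes tested with edgeR, 19.1% had an unadjusted p under 0.05, and 10.5% passed with DESeq2, 5.98% higher and 4.52% lower. Of 10 genes of inner retina neurons 1 was higher, and of 5 melanocyte genes 1 was lower. In such bulk RNA, fewer cells of a type and less RNA per cell cannot be told apart.

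Levels were compared between genes per kilobase of exon (RPKM, the CPM divided by the exon length). A gene was called used in the RPE libraries when it reached 1 RPKM in every control eye. By this measure 29 of the 61 genes were used, 26 were low or uneven and 6 were at 3 counts or fewer in each control eye. The Slc38 family had 7 of 11 genes in use, Slc1 4 of 7, Slc7 7 of 15, Slc6 8 of 21, Slc43 2 of 3 and Slc36 1 of 4. Of the 29 genes, 28 also reached 1 RPKM in every Nrf2 eye. The exception was Slc43a1, a carrier of branched-chain amino acids, at 1.06 to 1.76 RPKM in control eyes and 0.903 to 2.23 RPKM in Nrf2 eyes. Slc6a12, the betaine and GABA carrier, went the other way, with 0.851 to 4.41 RPKM in control eyes and 2.20 to 5.22 RPKM in Nrf2 eyes.

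A few genes made up most of this RNA. In the control eyes the 7 most abundant genes held 75.8% of the summed RPKM of the 61 genes, and 13 genes exceeded 10 RPKM in every control eye. The leader was Slc6a13, the GABA carrier GAT2, at 169 ± 64.4 RPKM (SD, n = 5 here and below). Slc6a20a, a carrier of proline and related imino acids, followed at 149 ± 38 RPKM, and Slc1a1, the glutamate and cysteine carrier EAAC1, at 124 ± 29.6 RPKM. The next 4 were Slc6a6 (the taurine carrier), Slc7a10 (the light chain Asc-1, which exchanges small neutral amino acids), Slc6a14 (a carrier of neutral and cationic amino acids) and Slc6a9 (the glycine carrier GlyT1), with means of 117, 103, 73.5 and 66.5 RPKM. Slc7a5 and Slc7a8, the light chains LAT1 and LAT2 for large neutral amino acids, were at 42.8 and 34 RPKM, and Slc38a10, a little-studied Slc38 protein, at 32.9 RPKM.

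Most neighbours in this order did not differ beyond their spread. Of the 28 neighbouring pairs among the used genes, 3 were further apart than the larger of their SDs, namely Slc6a9 over Slc7a5, Slc38a3 over Slc38a2 and Slc38a8 over Slc6a15. The order of 3 pairs was the same in all 5 control eyes, that of Slc6a20a over Slc1a1, Slc7a10 over Slc6a14 and Slc38a8 over Slc6a15. At the other end, no read was counted in any library for Slc7a9, Slc7a12 and Slc6a21, which at these depths allows up to 0.113 to 0.235 CPM per library, counting error only.

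**Figure D1:**
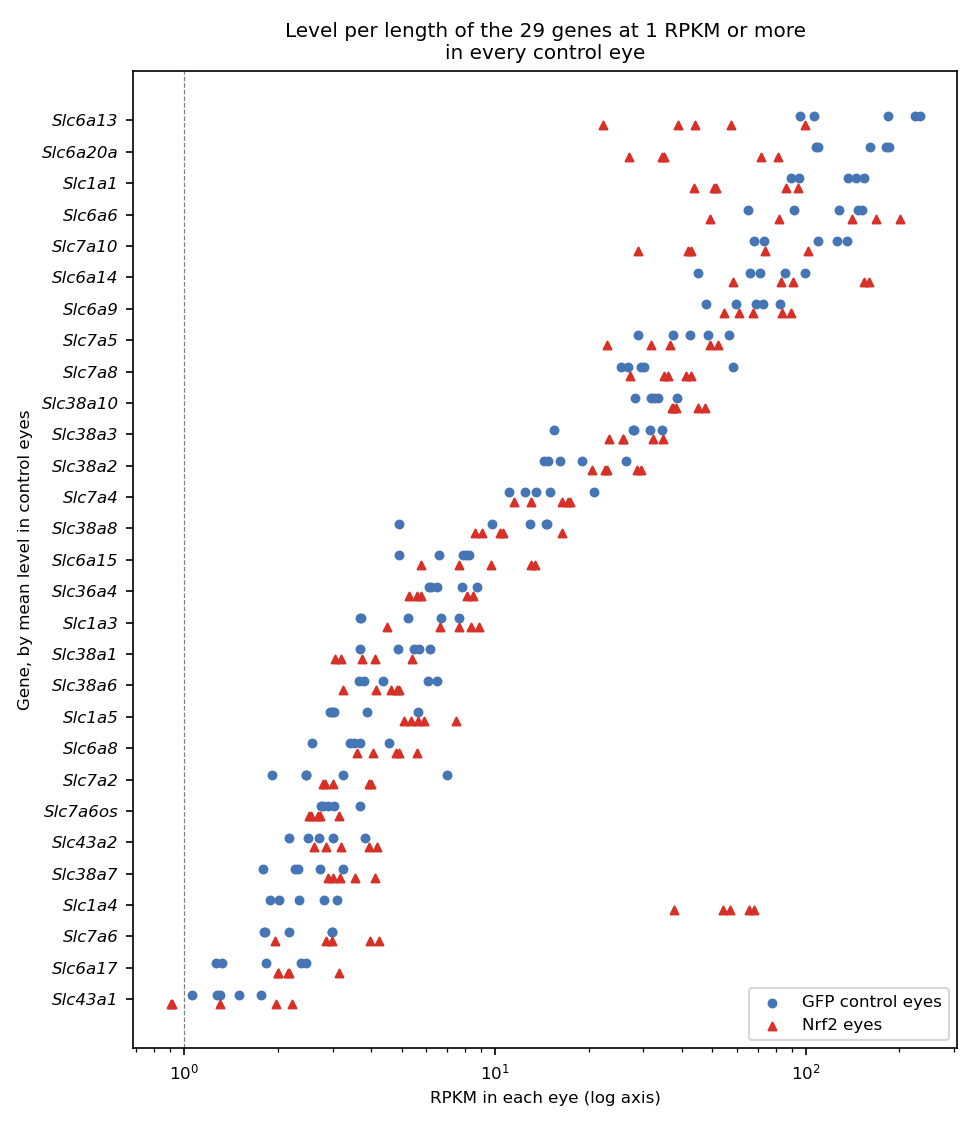
Level of the 29 used genes in each eye, in RPKM on a log axis, ordered by the mean of the control eyes (circles, 5 GFP control eyes, and triangles, 5 Nrf2 eyes). The dashed line is at 1 RPKM, and the Nrf2 eyes of Slc1a4 lie at 37.7 to 68.2 RPKM against 1.88 to 3.10 RPKM in control eyes.

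The order was different in the Nrf2 eyes. Slc6a6 ranked first at a mean of 128 RPKM (49.3 to 201 RPKM in the 5 eyes), followed by Slc6a14 at 109 and Slc6a9 at 71.3 RPKM. Slc6a13 was at rank 7 and Slc6a20a at rank 8, while Slc1a4, which encodes the alanine, serine and cysteine exchanger ASCT1, was at rank 6 after rank 28 in the control eyes. The sum over all 61 genes was 1189, 894, 1242, 1156 and 800.4 RPKM in the control eyes of mice 1 to 5 and 831, 789, 1085, 863 and 769 RPKM in their Nrf2 eyes. The Nrf2 eye was lower in each of the 5 mice, while the ranges of the groups overlapped, and the sum was not tested.

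The comparison of the Nrf2 eye with the control eye of the same mouse asked which of these genes change when Nrf2 is overexpressed in the RPE. In the fit over all genes, 46 of the 61 could be tested, and 6 of them passed an adjusted p-value of 0.05, which is 13% against 6.33% of the 16362 genes tested. Slc1a4 and Slc7a7 were higher, 2 of 46 against 3.60% of all tested genes, and Slc6a13, Slc6a20a, Slc1a1 and Slc7a10 were lower, 4 of 46 against 2.73%. All 4 lower genes were among the 5 most abundant in control eyes. The median log2 fold change of the 46 was 0.10, beside -0.01 over all tested genes, and 30 of the 46 were above 0, beside 7969 of the 16362. That median was 0.30 without mouse 1 and 0.20 without mouse 2, against 0.09 to 0.13 without mouse 3, 4 or 5. In 14 genes, 7 higher and 7 lower, each of the 5 mice gave the same sign, against 20.2% of all tested genes. The groups did not overlap for 3 genes, Slc1a4, Slc7a7 and Slc6a20a, against 6.12% of all tested genes.

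**Figure D2:**
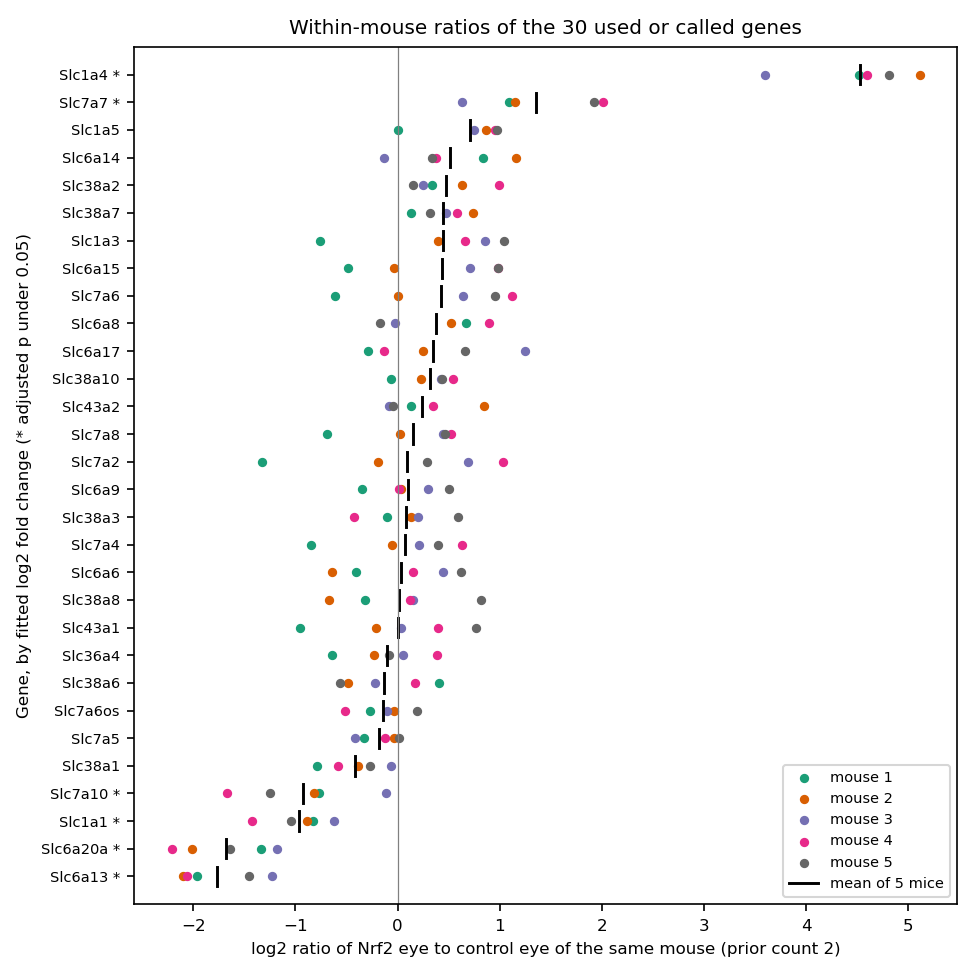
Log2 ratio of the Nrf2 eye to the control eye of the same mouse for the 30 tested genes that were used or passed the test, with 1 point per mouse and a bar at the mean of 5 mice. Asterisks mark the 6 genes with an adjusted p-value under 0.05, with Slc1a4 at the top, its lowest mouse at 3.59, and Slc6a13 at the bottom.

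Slc1a4 (ENSMUSG00000020142, chromosome 11, 20302180 to 20332713, minus strand) had the highest fold change of the 46 genes. In mice 1 to 5 it was at 9.21, 7.38, 12.2, 11 and 7.90 CPM in control eyes and 213, 258, 148, 268 and 224 CPM in Nrf2 eyes. Every Nrf2 eye was far above every control eye, and mouse 3 had both the highest control and the lowest Nrf2 value. The means were 9.53 ± 2.03 and 222 ± 47.4 CPM, a log2 fold change of 4.54 (adjusted p = 0.000146, SE 0.25), and the gene passed under each of the 12 alternatives tried, with log2 fold changes from 4.33 to 4.83. Its closest relative Slc1a5, the glutamine exchanger ASCT2, was at 23.5, 12.2, 12.6, 16.1 and 12.5 CPM in control eyes and 23.5, 22.3, 21.2, 31.3 and 24.7 CPM in Nrf2 eyes. The eyes of mouse 1 were nearly level while the Nrf2 eye was higher in the other 4, and the log2 fold change of 0.71 (SE 0.18) missed the threshold with an adjusted p of 0.0572. It passed with DESeq2 (0.00707), with every counted gene kept in the fit (0.0478) and without mouse 1 (log2 fold change 0.93, 0.0152). Summed over both exchangers, the level went from 6.12 ± 1.29 RPKM in control eyes to 62.5 ± 12.7 RPKM in Nrf2 eyes.

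Slc1a1 (ENSMUSG00000024935, chromosome 19, 28835049 to 28913960, plus strand) was the main glutamate carrier gene and was lower in the Nrf2 eye of each mouse. It was at 1270.5, 783, 1199, 1126 and 742 CPM in control eyes and 714, 424, 778, 419 and 360.0 CPM in Nrf2 eyes. The groups overlapped by a single pair of mice, since mouse 3 had more in its Nrf2 eye than the control eye of mouse 5, though just less than that of mouse 2. The log2 fold change was -0.96 (adjusted p = 0.00881, SE 0.13), and without the pairing by mouse it was -0.93 with an adjusted p of 0.0740. A gene on the other strand, 4430402I18Rik, shares 2631 exon bases with it (31.9% of the Slc1a1 exons), but had a mean of only 3.02 CPM in control eyes. The other used carrier, the glial type Slc1a3, was at 46.1 ± 15.2 CPM in control eyes and 61.5 ± 14.6 CPM in Nrf2 eyes (log2 fold change 0.45, adjusted p = 0.421), and of the 12 alternatives it passed only in the fit without mouse 1 (0.78, 0.0238). The 5 glutamate carriers together went from 134 ± 27.8 to 75.8 ± 21.1 RPKM.

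Among the carriers of GABA, betaine, taurine and creatine, Slc6a13 fell, and no other gene of the 6 tested passed. Slc6a13 (ENSMUSG00000030108, chromosome 6, 121300227 to 121337733, plus strand) was at 652, 278, 675, 533 and 309 CPM in control eyes and 167, 64.8, 288, 127 and 113 CPM in Nrf2 eyes. Mice 1, 3 and 4 had the higher control values, and the Nrf2 eye of mouse 3 alone reached above the lowest control eye, that of mouse 2. The log2 fold change was -1.76 (adjusted p = 0.00152, SE 0.18). The taurine carrier gene Slc6a6 was at 552, 1085, 1249, 1287 and 775 CPM in control eyes and 417, 696, 1702, 1426 and 1193 CPM in Nrf2 eyes. It was lower in the Nrf2 eye of mice 1 and 2 and higher in that of mice 3, 4 and 5, with a log2 fold change of 0.04 (adjusted p = 0.964, SE 0.24). The creatine carrier gene Slc6a8 was at 18.5 ± 3.70 CPM and 23.9 ± 4.11 CPM (log2 fold change 0.38, adjusted p = 0.332). The whole group summed to 294 ± 74.8 RPKM in control eyes and 192 ± 78.7 RPKM in Nrf2 eyes.

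Of the 5 tested proline and neutral amino acid carriers of the Slc6 family, Slc6a20a alone passed. Slc6a20a (ENSMUSG00000036814, chromosome 9, 123634770 to 123678885, minus strand) was at 739, 446, 758, 658 and 440.1 CPM in control eyes and 292, 110.1, 333, 142 and 141 CPM in Nrf2 eyes, and the highest Nrf2 eye, that of mouse 3, stayed under the lowest control eye. Its log2 fold change was -1.68 (adjusted p = 0.00237, SE 0.19), and it passed under all 12 alternatives, from -1.74 to -1.39. Slc6a20b, a close copy that could share reads with it, was at 1.84 ± 0.527 CPM and 1.10 ± 0.565 CPM, with a log2 fold change of -0.85 (adjusted p = 0.273) and a lower Nrf2 eye in all 5 mice. Sacm1l, on the other strand, shares 1800 exon bases with Slc6a20b (21.1% of the Slc6a20b exons) and went from 140 to 119 CPM. The part of its reads in the Slc6a20b counts was not tested. Slc6a14 had the opposite sign to Slc6a20a. It was at 295, 244, 341, 154 and 227 CPM in control eyes and 527, 547, 312, 200.4 and 286 CPM in Nrf2 eyes, higher in the Nrf2 eye of 4 mice and lower in that of mouse 3, and its log2 fold change of 0.52 (SE 0.22) did not pass (adjusted p = 0.185). Slc6a15 and Slc6a17, carriers of neutral amino acids best known from neurons, had log2 fold changes of 0.44 and 0.34 with adjusted p-values of 0.398 and 0.523.

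In the light chain group of the Slc7 family, Slc7a10 was lower and Slc7a7 higher. Slc7a10 (ENSMUSG00000030495, chromosome 7, 35186385 to 35201114, plus strand) was at 265, 155, 231, 287 and 144 CPM in control eyes and 156, 88.2, 214, 90.3 and 60.7 CPM in Nrf2 eyes. The within-mouse log2 ratios were -0.77, -0.82, -0.11, -1.67 and -1.25, so mouse 3 barely moved while mouse 4 fell most, and the groups overlapped. The log2 fold change of -0.92 (SE 0.26) had an adjusted p of 0.0499, at the threshold. The call was lost in 8 of 12 alternatives, among them the fits without mouse 1, 2, 4 or 5 (adjusted p from 0.0857 to 0.141) and the unpaired fit (0.249). Lrp3, on the other strand, shares 377 exon bases with it (17.9% of the Slc7a10 exons) and went from 70.1 to 50.2 CPM. The part of shared reads in the difference was not tested.

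Slc7a7 (ENSMUSG00000000958, chromosome 14, 54369442 to 54417780, minus strand), the light chain y+LAT1 that exchanges cationic for neutral amino acids, was low in both groups. It had 11 to 41 counts in control eyes and 38 to 95 counts in Nrf2 eyes. That is 2.06, 1.20, 2.04, 0.662 and 0.978 CPM and 4.50, 2.78, 3.22, 2.98 and 3.99 CPM, with every Nrf2 eye above every control eye, a log2 fold change of 1.41 (SE 0.26) and an adjusted p of 0.0438. The call did not hold in 8 of the 11 alternatives that gave a value, including each fit without a mouse (0.0557 to 0.127) and the unpaired fit (0.0556). Macrophages are known to express this gene, and the summed microglia and macrophage markers were also above their control range in every Nrf2 eye (350 to 1730 CPM against 167 to 291 CPM), with P2ry12 going from a mean of 0.724 to 46 CPM. Their part in the Slc7a7 difference was not tested. Oxa1l, which shares 232 exon bases with Slc7a7 on the other strand, went from 37.1 to 29.7 CPM.

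The other tested light chains, Slc7a5, Slc7a8 and Slc7a6, did not pass. Slc7a5 was at 107, 139, 157, 209.7 and 179.9 CPM in control eyes and 85, 135, 118, 193 and 182 CPM in Nrf2 eyes, close to level in mice 2 and 5 and lower in mice 1 and 3, for a log2 fold change of -0.18 (adjusted p = 0.415, SE 0.08). Slc7a8 and Slc7a6 had log2 fold changes of 0.16 and 0.43 (adjusted p = 0.759 and 0.495), and in both the Nrf2 eye was lower in mouse 1, nearly level in mouse 2 and higher in the other 3. Slc3a2, the heavy chain these proteins need to reach the surface, was at 478, 363, 421, 388 and 291 CPM in control eyes and 462, 491, 587, 571 and 466 CPM in Nrf2 eyes. It was higher in the Nrf2 eye of mice 2 to 5 and slightly lower in that of mouse 1, and its log2 fold change of 0.42 (SE 0.12) did not pass (adjusted p = 0.120). Slc7a11, another light chain of Slc3a2, left out of the list, went from 15.4 ± 3.49 to 179 ± 55 CPM. Cltrn, a membrane partner of several Slc6 amino acid carriers, had a log2 fold change of -0.66 (adjusted p = 0.0979, SE 0.22). With DESeq2, 2 of the 3 tested heavy chains and partners passed, 1 in each direction, against 10.5% of the genes tested with edgeR.

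**Figure D3:**
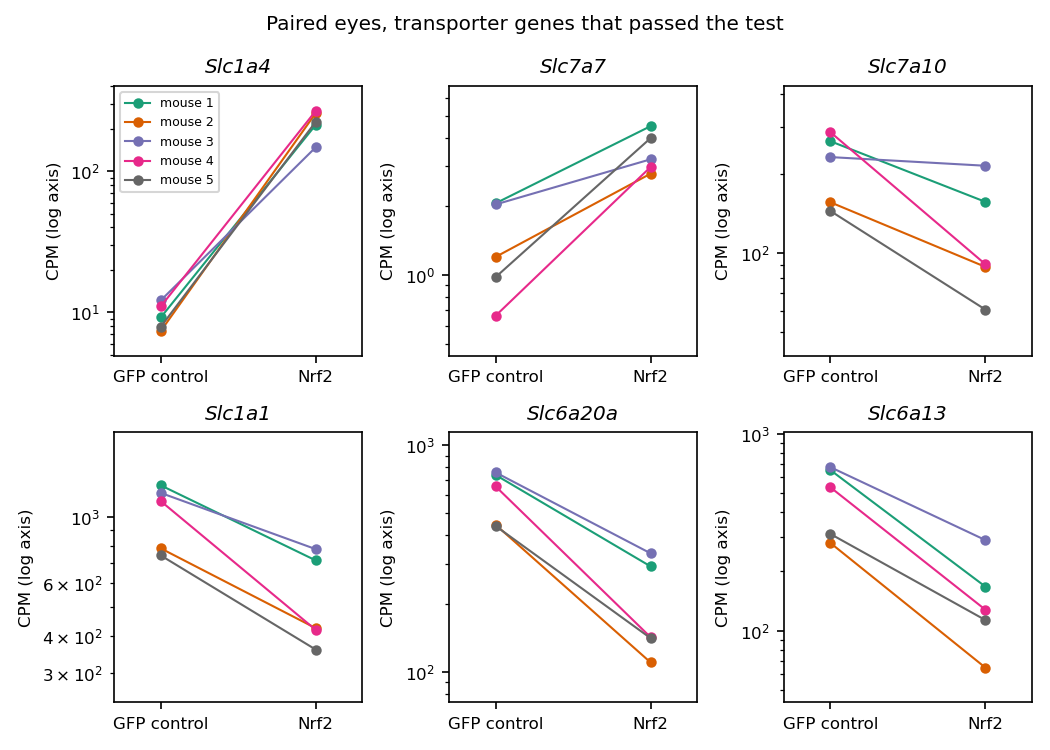
CPM of the 6 called transporter genes in the GFP control eye and the Nrf2 eye, on log axes that differ between panels, with 1 line per mouse. All 5 lines rise for Slc1a4 and Slc7a7 and all 5 fall for Slc7a10, Slc1a1, Slc6a20a and Slc6a13, with the line of mouse 3 nearly flat for Slc7a10.

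The glycine carrier gene Slc6a9 was at 356, 306, 376, 426 and 245 CPM in control eyes and 280.1, 314, 462, 429.8 and 348 CPM in Nrf2 eyes. Its ranges covered each other and its log2 fold change was 0.10 (adjusted p = 0.796, SE 0.14). Ccdc24, on the other strand, shares 27.8% of its exon bases. The neuronal glycine carrier Slc6a5 was too low to be tested, with a mean of 0.276 CPM in control eyes.

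Of the 10 tested Slc38 genes, sodium-coupled carriers of glutamine and other neutral amino acids, 0 passed with edgeR, 4 had an unadjusted p under 0.05 (19.1% of all tested genes did) and 1 passed with DESeq2 (10.5%). Their log2 fold changes ran from -0.42 to 0.47 with a median of 0.15. Slc38a10, the family's most abundant gene, was at 248, 204, 214, 209 and 181 CPM in control eyes and 238, 239, 288, 305 and 245 CPM in Nrf2 eyes. It was nearly level in mouse 1 and higher in the Nrf2 eye of the other 4, with a log2 fold change of 0.32 (adjusted p = 0.180, SE 0.11). Slc38a2, the carrier SNAT2, was higher in the Nrf2 eye of all 5 mice (0.47, adjusted p = 0.108, SE 0.15), passing in 1 of the alternatives, DESeq2 (0.0362). Slc38a1, the carrier SNAT1, was lower in all 5 (-0.42, adjusted p = 0.0994, SE 0.12). Slc38a7, a lysosomal glutamine exporter, was higher in all 5 (0.45, adjusted p = 0.147, SE 0.10), whereas Slc38a9, which reports lysosomal arginine to mTORC1, was at 12.3 and 11.7 CPM. The family's summed level was 104 ± 8.67 RPKM in control eyes and 118 ± 9.89 RPKM in Nrf2 eyes.

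In the remaining groups 0 genes passed with edgeR or DESeq2, and 1 Slc36 and 1 monoamine carrier gene had an unadjusted p under 0.05. The cationic amino acid group of the Slc7 family summed to 19.6 ± 5.81 RPKM and 19.7 ± 2.92 RPKM, led by Slc7a4 at 14.6 and 15.1 RPKM. Slc7a2 followed at 3.42 and 3.31 RPKM. P2rx6, on the other strand, shares 554 exon bases with Slc7a4 (13.3% of the Slc7a4 exons). Slc36a4 led the proton-coupled Slc36 family. It was at 57.3, 40.7, 51.2, 42.5 and 40.2 CPM in control eyes and 36.6, 34.6, 53.2, 55.5 and 37.8 CPM in Nrf2 eyes, lower in the Nrf2 eye of mice 1, 2 and 5, with a log2 fold change of -0.11 (adjusted p = 0.806, SE 0.17). Slc36a2 was higher in the Nrf2 eye of all 5 mice at 1.93 and 3.33 CPM on average, and did not pass (0.81, adjusted p = 0.133, SE 0.16). Slc43a2, the carrier LAT4 and leader of the Slc43 family, was at 38.2, 21.8, 30.3, 25 and 27.2 CPM in control eyes and 41.8, 39.4, 28.6, 32 and 26.3 CPM in Nrf2 eyes. Its groups overlapped widely, and the log2 fold change was 0.24 (adjusted p = 0.501, SE 0.17). Of the monoamine carriers only the serotonin carrier gene Slc6a4 could be tested, at 4.25 ± 4.09 CPM in control eyes and 6.87 ± 2.47 CPM in Nrf2 eyes (1.02, adjusted p = 0.226, SE 0.45).

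Several carriers, most of them known from the neural retina, stood out in mouse 2, whose eyes were the richest in rod RNA. In 6 genes, among them Slc1a7, Slc1a2 and Slc6a11, the control eye of mouse 2 exceeded 1 CPM and was over 2 times the highest other control eye. The share of all genes that did so is not given here, so whether 6 is many cannot be told. Slc1a7, the photoreceptor and bipolar cell glutamate carrier EAAT5, was at 3.27, 36.8, 2.40, 8.13 and 2.45 CPM in control eyes and 1.61, 31, 2.14, 0.783 and 2.23 CPM in Nrf2 eyes, with both eyes of mouse 2 high and the control eye of mouse 4 next. Slc1a2, the glial glutamate carrier GLT-1, was at 1.46, 24.8, 1.17, 7.95 and 4.37 CPM in control eyes and 4.12, 21.4, 7.35, 2.27 and 1.70 CPM in Nrf2 eyes. Of the 5 that could be tested none passed, and all 6 were below the level of use in at least 1 control eye. The rod RNA and these levels share libraries, and the part of rods in them was not tested.

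**Figure D4:**
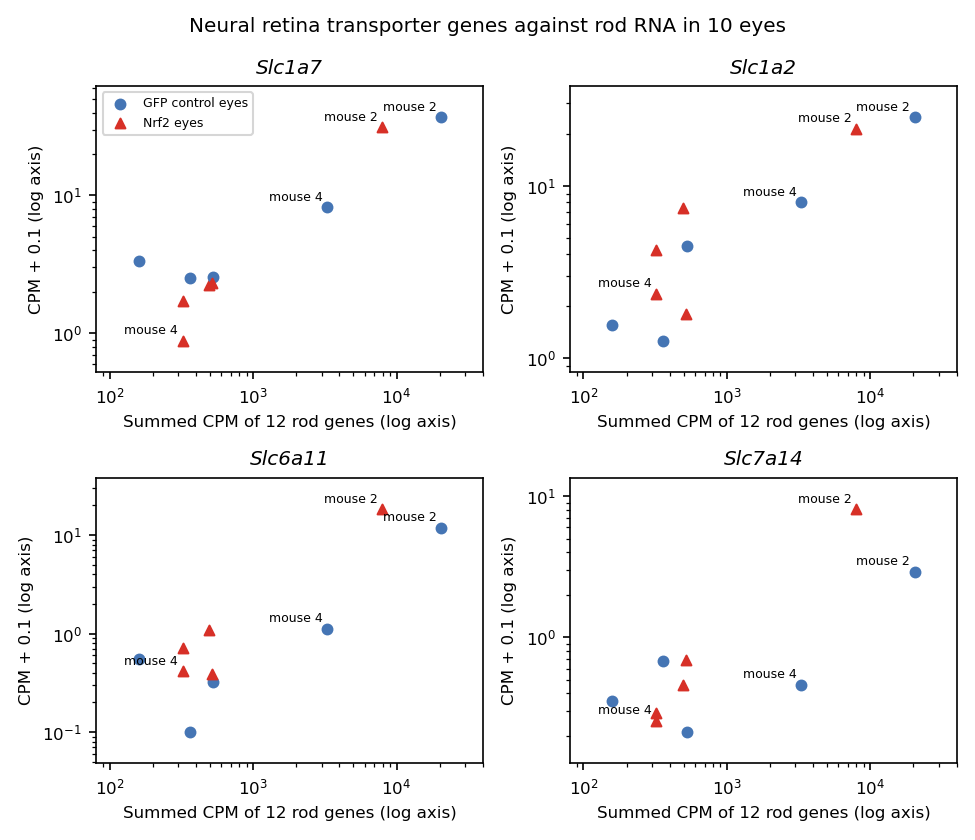
CPM of 4 carrier genes (with 0.1 added, log axis) against the summed CPM of 12 rod genes (log axis), with circles for GFP control eyes and triangles for Nrf2 eyes. Both eyes of mouse 2 lie at the upper right, with Slc1a7 at 36.8 and 31 CPM, and for Slc1a7 and Slc1a2 the control eye of mouse 4 comes next.

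Mice 2 and 4, with the rod-rich libraries, were left out in a further fit. This fit of mice 1, 3 and 5 alone was an alternative chosen after seeing the data, and it also has fewer mice. In it 146 of 16683 genes passed, and 2 of 45 transporters, Slc1a4 (4.33, adjusted p = 0.0244) and Slc6a20a (-1.39, 0.0454). Slc6a13 kept its direction at -1.55 with an adjusted p of 0.0551, and Slc1a1 was at -0.83 (0.139). In the main fit of all 5 mice, the 12 RPE markers had a median log2 fold change of -0.99, beside the 4 lower transporters. The 7 that passed ran from -2.88 for Rpe65, the visual cycle isomerase gene, to -0.63 for Otx2, and the 5 that did not were Mitf at -0.26, Ttr at 0.00, Pmel at 0.17, Best1 at 0.70 and Tyr at 0.88. Whether the lower transporter levels go beyond that was not tested.

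Genes that work beside these carriers were counted in lists of the same pathways. Of 26 tested enzymes of amino acid metabolism, 5 were lower and 0 higher, against 2.73% lower and 3.60% higher over all tested genes (with DESeq2 6 of the enzymes were lower and 2 higher, against 4.52% and 5.98%). Phgdh, which starts serine synthesis from a glycolytic intermediate, was at 409, 278, 404, 313 and 239 CPM in control eyes and 198, 123, 258, 145 and 141 CPM in Nrf2 eyes. It was lower in every Nrf2 eye than in the control eye of its mouse (log2 fold change -0.95, adjusted p = 0.00392, SE 0.10). The other 4 were Bcat1, a transaminase of branched-chain amino acids (-1.28), Cth, which makes cysteine from cystathionine (-0.91), Csad, an enzyme of taurine synthesis (-0.76), and Abat, which breaks down GABA (-0.57), with adjusted p-values of 0.00743, 0.0127, 0.0175 and 0.0318. The enzymes Asns and Pycr1 were higher in the Nrf2 eye of all 5 mice without passing (0.88 and 1.42, adjusted p = 0.0874 and 0.101). Psat1 was lower in all 5 without passing (-0.46, adjusted p = 0.0753). Of 8 tested genes of amino acid sensing and the ATF4 response, 1 was higher and 1 lower, against the same 3.60% and 2.73%. At an unadjusted p under 0.05 there were 4 of the 8, against 19.1% of all tested genes. DESeq2 gave 1 higher and 1 lower, against 5.98% and 4.52%. The middle log2 fold change in this list was 0.47, against -0.01 over all tested genes. Eif4ebp1, a translation repressor, was higher (1.38, adjusted p = 0.00797, SE 0.23) and Ddit4, an inhibitor of mTORC1, lower (-0.78, adjusted p = 0.0237, SE 0.14). Trib3 and Sesn2 were higher in the Nrf2 eye of all 5 mice without passing (0.79 and 0.39, adjusted p = 0.118 and 0.0992). Nupr1, Chac1 and Ddit3 were at 0.58, 0.54 and -0.07 (adjusted p = 0.379, 0.468 and 0.877). Atf4 RNA was at 68.2 ± 11.5 CPM in control eyes and 69.9 ± 7.80 CPM in Nrf2 eyes. ATF4 protein was not measured, so whether its activity changed was not tested. Of 12 tested vesicular, mitochondrial, lysosomal and peptide carriers, 0 passed with edgeR, 1 had an unadjusted p under 0.05 and 0 passed with DESeq2.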

How the data were processed

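RNA of the RPE from 5 CD1 mice was analysed as 10 libraries, 5 GFP control eyes and 5 Nrf2 eyes. The authors mapped reads to the mouse genome and deposited whole-number raw counts per Ensembl gene, with no normalization. The notes of the submitters name Salmon 0.8.2 and FastQC, and the methods STAR with featureCounts. Which of these counting routes gave the deposited table, and the strand setting, are not given in the sources used here, so genes that overlap on opposite strands are uncertain. The table had 0 columns of other samples, and 47310 of 47729 identifiers (99.1%) matched GENCODE M21, which gave symbols, types and exon lengths. Another 3 symbols of the pattern were not protein-coding and were left out.

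The test was the quasi-likelihood one of edgeR 4.0.16 under R 4.3.3 (filterByExpr with a minimum count of 10, TMM, a block for each mouse, Benjamini-Hochberg adjustment over all tested genes, threshold 0.05, two-sided). All adjusted p-values are from this test unless DESeq2 (1.42.0) is named. CPM are counts scaled to a common size by the TMM-adjusted library totals, and RPKM are CPM per kilobase of merged exons. Each SE is the SD of the 5 within-mouse log2 ratios (prior count 2) over the square root of 5. The pairing is by the animal number in the labels. Across genes, deviations from the group means had a Pearson's r of 0.19 to 0.71 for 2 eyes of the same mouse and of -0.42 to 0.28 for eyes of different mice. Every pair of libraries differed by more than sampling noise. The floor for a count of 0 is 3 counts. Amplified reads are not independent molecules, so it covers counting error only.

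Genes with values in every eye are those past the threshold, the 8 most abundant in control eyes and the leader of each family. Others are named with their level or fold change. Genes of mention that this rule does not reach, such as Slc1a5 and Slc1a7, were chosen after their values were seen, as was the grouping by substrate. The genes followed and the lists (partners, other carriers, enzymes, sensing genes and markers of RPE, rods, cones, inner retina neurons, Müller glia, microglia and macrophages, endothelium, fibroblasts, muscle, melanocytes and T cells) were chosen with earlier results of these data known. One of the 61 genes is counted but not reported here by name. The fit was tested first on simulated data without differences between mice. It recovered 52.6% of the genes given a log2 fold change of 1 in either direction and 90% of those given 2. Of its calls, 5.37% were false.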

Additional observations from a re-analysis of the deposited data

How the results depend on the processing

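Over all genes, 1036 passed with the mouse as a block, 755 without the pairing by mouse, 1812 with DESeq2, 498 with the rod list as a covariate, 584 to 857 when each mouse was left out in turn and 146 in mice 1, 3 and 5 alone. The count of transporters past the threshold was 6 of 46, against 3 of 46 without the replicate block (Slc1a4, Slc6a13 and Slc6a20a). It was 8 of 51 with DESeq2 (1812 of 19592 over all genes) and 7 of 58 when no gene was filtered out (1168 of 32000). When genes averaged 50 counts or more it was 4 of 40 (919 of 13404), and with the rod covariate 4 of 46 (498 of 16362). It was 4 to 6 of 45 to 48 when each mouse was left out and 2 of 45 in mice 1, 3 and 5 alone (146 of 16683). The cause of these shifts was not tested, other than that fewer mice entered the last 2 kinds of fit. Slc1a4 and Slc6a20a passed in all 12 alternatives, Slc6a13 in 11, Slc1a1 in 10, Slc7a10 in 4 and Slc7a7 in 3 of 11. Among values that did not pass, the log2 fold change of Slc36a4 ran from -0.20 to 0.065 and that of Slc6a6 from -0.11 to 0.24 with a mouse left out, crossing 0. No sign of a called gene turned. The median log2 fold change of the transporters each alternative tested, a number that differed between them, ran from 0.08 to 0.30. The number of used genes was 33 at 0.5 RPKM, 23 at 2 RPKM, 25 at 10 CPM and 29 or 30 with a mouse left out.

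With 5 mice, a gene that missed the threshold is not shown to be level. Exon lengths of the whole annotation, rather than of the isoforms in use, set the RPKM order.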

Other observations

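Of the 61 genes, 15 had too few counts to be tested. Their mean in control eyes was at most 0.826 CPM, for Slc7a14, a gene best known from the neural retina, which was at 0.252, 2.82, 0.583, 0.361 and 0.113 CPM in control eyes and 0.189, 8.03, 0.357, 0.157 and 0.586 CPM in Nrf2 eyes, with both eyes of mouse 2 the highest of their group. The noradrenaline carrier gene Slc6a2 was at 0.252, 0.120, 0.146, 0.361 and 0.0753 CPM in control eyes and 1.14, 0.314, 0.556, 0.235 and 0.293 CPM in Nrf2 eyes, with the Nrf2 eye higher in 4 of 5 mice and no test. The kidney and gut carrier genes Slc6a18 and Slc6a19, relatives of Slc6a20a, had means of 0.161 and 0.257 CPM in control eyes, near the floor of a library. The median of the within-mouse log2 ratios over the 46 tested genes was -0.30 in mouse 1, 0.01 in mouse 2, 0.21 in mouse 3, 0.16 in mouse 4 and 0.27 in mouse 5.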
